A study of Mus musculus with 191 samples.

Results

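Ribosomal protein genes of the cytoplasm were examined in liver and 3 brain regions, the prefrontal cortex (PFC), the amygdala (AMY) and the accumbens (NAC), of mice exposed to chronic intermittent ethanol (CIE) vapor. They were chosen by symbol alone, as every annotated gene whose symbol starts with Rpl or Rps and a digit, or is Rplp or Rpsa, without the Rps6k kinases and the pseudogenes. This gave 60 of the 10004 genes for which the annotation used here paired a probe with a symbol, read by 71 of 13798 such probes among the 25697 of the array. Of these, 31 code for proteins of the large (60S) subunit and 22 for proteins of the small (40S) subunit. The other 7 are paralogs or namesakes, namely Rpl22l1, Rpl36al, Rpl3l, Rpl7l1 and Rps27l, the retrogene Rps23rg1, and Rps19bp1, which is a binding partner of a ribosomal protein and no ribosomal protein itself. Rpl7, Rpl11, Rpl39l, Rplp2 and Rps27a were not among the annotated genes used here. After the filter on dim probes, 59 of the 60 genes were tested in AMY and in NAC (without Rpsa), 59 in PFC (without Rpl3l) and 58 in liver (without Rpl3l and Rpsa).

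Male C57BL/6J mice, 10 to 12 weeks old, went through 4 weekly cycles of 4 days with 16 h of vapor or air a day. Treated mice inhaled ethanol vapor after an injection of ethanol at 1.6 g/kg with pyrazole at 1 mmol/kg, and control mice inhaled air after saline with the same dose of pyrazole. Pyrazole inhibits alcohol dehydrogenase and slows the removal of ethanol. Both groups were given this drug, and no group went without it. Separate mice were killed at 0, 8 and 120 h after the last exposure, and 191 Illumina MouseRef-8 v2 arrays were available, in 24 groups of 8 (7 for control livers at 0 h). The tissues of a time point came from the same mice and are not independent of each other. Detected probes per array ran from 11297 to 14833 and the median probe intensity from 90.26 to 126.2. The highest intensity of a ribosomal protein probe on any array was 24430, where the highest of any probe was 29310, and whether the scale was compressed there was not tested. The number of arrays limits the precision. All levels below are log2 intensities after quantile normalization within a tissue, and all differences are on the same log2 scale, with adjusted p from limma over all probes of the tissue and 0.05 as the threshold.

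Cytoplasmic ribosomes are built in the nucleolus from ribosomal RNA and close to equal numbers of each ribosomal protein, and their making takes up a large share of the work of a growing cell. In vertebrates the messenger RNAs of ribosomal proteins start with a cytosine followed by a run of pyrimidines, the 5′ terminal oligopyrimidine (TOP) tract, through which the TOR pathway and the protein LARP1 hold their translation back or release it. In liver, a tissue of high protein output, the making of ribosomes follows feeding and the time of day. Several of the proteins have further roles, as Rpl5 and Rps7, which can bind Mdm2 when ribosome assembly is disturbed, and Rps6, the substrate of the S6 kinases.

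The start regions of the genes on which the liver results turn are shown because such a tract would begin at the start of the RNA. Of the 60 genes, 52 matched the RefSeq promoter table of build GRCm38.p6. In a window from 20 bases before the annotated start to 30 bases from it, read on the coding strand, a run of 8 or more pyrimidines (C or T) was found in 23 of 45 genes of the 60S and 40S subunits (51.1%), in 3 of the 7 paralogs and namesakes, and in 21.5% of 27025 genes of the table. The letters CTCTTT, searched on both strands of the same window and on the coding strand themselves a part of such a run, were found in 22.2% of the 60S and 40S genes and in 4.2% of all genes. The letters CCGGAAG, the core bound by ETS family factors, were searched on both strands of 300 bases (250 before the start and 50 from it). They were found in 40% of the 60S and 40S genes and in 9.93% of all genes. These are matches of letters and no measured sites. In each line below, the first 20 letters precede the annotated start, and the capitals are not a mark of a TOP tract. They lie wholly before the annotated start in both lines of Rpl22, the first lines of Rpl34 and Rps27l, and Rpl36al. In Rps7 and the other line of Rps27l they lie well after it, and in Rps7 they reach the end of the window. The windows follow 5′ to 3′, with the longest pyrimidine run in capitals, and a gene with more than 1 line has more than 1 annotated start. In this order they lie at chr4:152325706-152325755 and chr4:152324416-152324465 (Rpl22, plus strand), chr2:32961692-32961741 (Rpl12, plus), chr12:28635924-28635973 (Rps7, minus), chr3:130730369-130730418 and chr3:130730308-130730357 (Rpl34, minus), chr4:86857338-86857387 (Rps6, minus), chr3:90213619-90213668 (Rps27, minus), chr9:66946066-66946115 and chr9:66946393-66946442 (Rps27l, plus) and chr12:69184038-69184087 (Rpl36al, minus).
Rpl22, first start: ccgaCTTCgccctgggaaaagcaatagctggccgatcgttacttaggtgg
Rpl22, other start: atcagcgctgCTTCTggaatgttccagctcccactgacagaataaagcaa
Rpl12: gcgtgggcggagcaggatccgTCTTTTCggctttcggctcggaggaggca
Rps7: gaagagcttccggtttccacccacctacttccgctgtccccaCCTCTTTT
Rpl34, first start: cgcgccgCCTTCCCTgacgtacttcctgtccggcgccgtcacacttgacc
Rpl34, other start: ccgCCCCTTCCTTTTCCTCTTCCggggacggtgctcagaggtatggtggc
Rps6: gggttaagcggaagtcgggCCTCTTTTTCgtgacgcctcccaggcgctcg
Rps27: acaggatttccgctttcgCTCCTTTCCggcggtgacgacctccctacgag
Rps27l, first start: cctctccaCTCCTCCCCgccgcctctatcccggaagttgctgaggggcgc
Rps27l, other start: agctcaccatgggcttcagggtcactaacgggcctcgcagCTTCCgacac
Rpl36al: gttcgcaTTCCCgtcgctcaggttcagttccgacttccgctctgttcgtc

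In liver, ribosomal protein genes fell between 0 and 120 h after the last exposure, in control mice as in treated mice. In controls, 41 of the 58 genes were lower at 120 h than at 0 h and 3 were higher, so that 75.9% passed the threshold, where 46.4% of all genes did. The lower genes were 70.7% of the 58, where 22.5% of all genes were lower, and the higher ones are to be read against 23.9% of all genes. The median difference over the 58 genes was -0.27, and over all genes it was 0.0054. Both subunits took part, with 24 of 31 genes lower for the 60S subunit (median -0.27) and 15 of 21 for the 40S subunit (median -0.31). Of the 6 paralogs and namesakes tested, 2 were lower (Rpl36al and Rps19bp1).

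Per array, the median of the 58 genes relative to the controls at 0 h ran from -0.11 through 0.03 to 0.10 (lowest, median and highest) in the controls at 0 h and from -0.05 through 0.02 to 0.12 in the controls at 8 h. In the controls at 120 h it ran from -0.44 through -0.25 to -0.13. Every control array at 120 h lay below every control array at 0 h and at 8 h. In treated mice it ran from -0.09 through 0.11 to 0.29 at 0 h, from -0.05 through 0.12 to 0.39 at 8 h, and from -0.32 through -0.21 to -0.16 at 120 h. Here too, no array at 120 h reached the level of an earlier one.

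**Figure D1:**
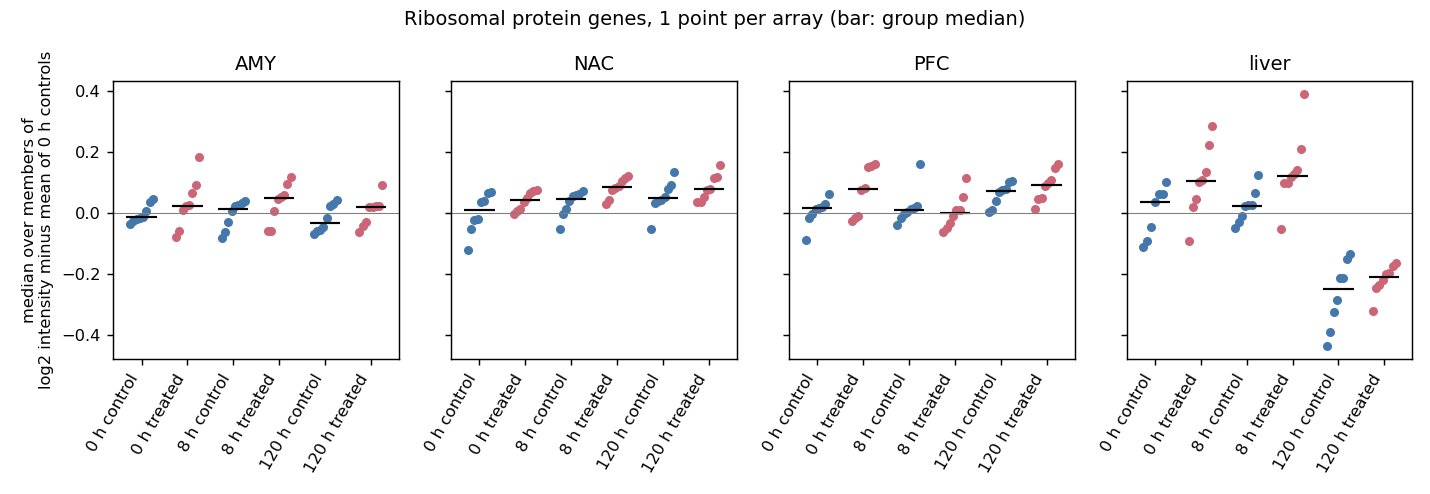
Median over the ribosomal protein genes of log2 intensity minus the mean of the 0 h controls of the same tissue (y axis, log2), 1 point per array, by time point and treatment in AMY, NAC, PFC and liver, with a bar at each group median. In liver both groups at 120 h lie below 0, with group medians of -0.25 in controls and -0.21 in treated mice, and in the brain regions all group medians lie between -0.03 and 0.09.

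The largest falls in controls were in proteins of both subunits. Rpl12, at the base of the stalk to which elongation factors bind, read 11.59, 11.93 and 12.09 (lowest, median, highest of 7 arrays) at 0 h and 10.98, 11.43 and 11.53 (8 arrays) at 120 h. The groups did not overlap, and the difference was -0.55 (SE 0.09, adjusted p = 2.45e-05 with limma). Rpl34, a 60S protein, read 11.28, 11.70 and 11.79 at 0 h and 10.95, 11.11 and 11.24 at 120 h. This was again without overlap, at -0.49 (SE 0.07, adjusted p = 4.85e-06). Rps7, a 40S protein, read 12.39, 12.57 and 12.67 at 0 h and 11.87, 12.07 and 12.22 at 120 h. All 8 later arrays lay below all 7 earlier ones, at -0.49 (SE 0.05, adjusted p = 1.62e-08).

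Other falls of more than 0.4 were those of Rpl5 (-0.47), Rpl27 (-0.46), Rps10 (-0.44), Rps13 (-0.42), Rpl13a (-0.40) and Rpl24 (-0.40). Rps6 fell by 0.34 (SE 0.06, adjusted p = 7.78e-05), Rpl39 by 0.40, and the stalk proteins Rplp0 and Rplp1 by 0.27 and 0.24. In 17 of the 58 genes (29.3%) every control array at 120 h lay below every control array at 0 h, which held for 8.1% of all genes. Counting the single gene that lay above without overlap, Rpl22, the groups were apart in 31% of the 58 genes and in 15.6% of all genes. Genes that did not pass included Rps9 (-0.00, adjusted p = 0.968), Rps27 (-0.24, adjusted p = 0.0624) and Rps27l (0.02, adjusted p = 0.743).

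Treated mice, which share no array with the controls, gave these counts over the same interval. Of the 58 genes, 42 were lower at 120 h than at 0 h and 3 were higher (77.6%, where 38.3% of all genes passed, 18.2% as lower and 20.1% as higher), with a median of -0.33. Rpl12 fell by 0.83 (SE 0.10, adjusted p = 1.39e-06), Rps6 by 0.73, Rps13 by 0.67 and Rps7 by 0.65. Of the genes that passed, 40 did so with the same sign in controls and in treated mice and 0 with opposite signs, which is 90.9% of the 44 of the controls and 88.9% of the 45 of the treated mice. Over all genes, 1581 passed in both with the same sign, 46.2% of those of the controls and 56% of those of the treated mice.

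**Figure D2:**
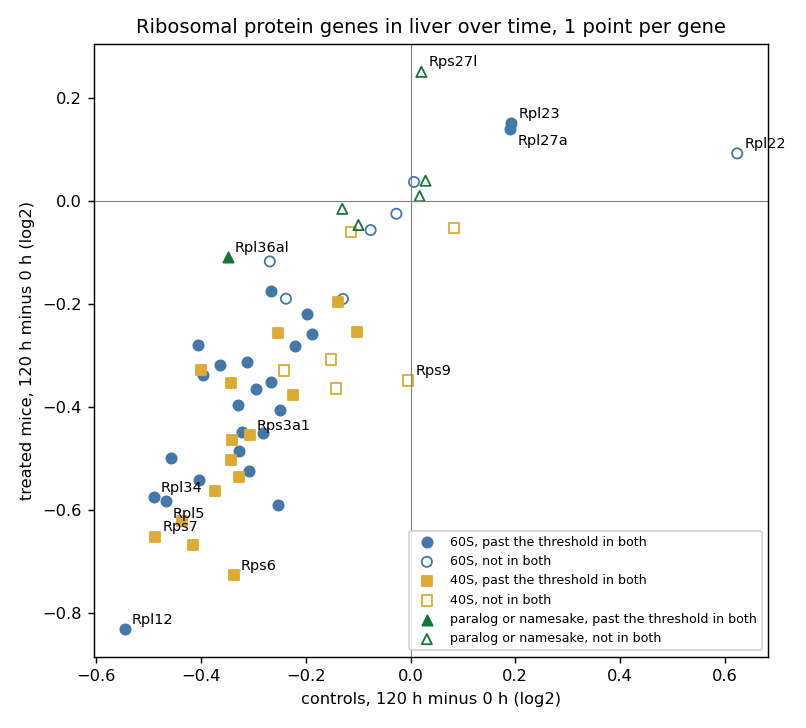
Difference between 120 h and 0 h after the last exposure in liver for each ribosomal protein gene, in controls (x axis, log2) and in treated mice (y axis, log2), 1 point per gene. Most genes lie to the lower left of 0 in both, and Rpl22 stands apart at 0.62 in controls and 0.09 in treated mice.

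At 8 h few genes had changed. In controls, 5 genes were lower at 8 h than at 0 h and 0 were higher, 8.62% where 13.8% of all genes passed (7.27% as lower and 6.57% as higher), with a median of 0.03. These were Rps3a1 (-0.31), Rpl13a (-0.24), Rpl22 (-0.22), Rpl10 (-0.16) and Rplp0 (-0.12). In treated mice 0 genes passed between 0 and 8 h (limma), 4 at an unadjusted p of 0.05 or lower, where 6.59% of all genes passed. The time since exposure, the time since the last pyrazole, the hour of killing and any batch in which a time point was handled cannot be told apart in this design, since each time point is 1 set of mice.

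Markers of other cell types moved over the same interval. Of 10 Kupffer cell marker symbols 7 were kept, without Cd68, Csf1r and Emr1 (an older symbol of Adgre1, which was kept), and 0 were higher and 3 lower in controls at 120 h than at 0 h, with Marco, a scavenger receptor, at -0.54, and their summed intensity ran from 2281 to 4881 at 0 h and from 2205 to 2756 at 120 h. The 2 of 5 red blood cell markers kept, Hba-a1 (1.21) and Alas2 (1.12), were both higher, with sums from 2146 to 6063 at 0 h and from 4963 to 13350 at 120 h. Of 8 hepatocyte markers 6 were kept, without Fgb and Tat, and 3 were higher and 0 lower, with sums from 58980 to 72440 at 0 h and from 75560 to 80540 at 120 h. The part of these shifts in the fall of ribosomal protein genes was not tested. In whole tissue, fewer cells of a type and less RNA per cell cannot be told apart.

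At 0 h after the last exposure, treated livers had higher levels of some ribosomal protein genes than control livers. Of the 58 genes, 9 were higher and 3 lower, 20.7% where 21.8% of all genes passed (9.55% as higher and 12.2% as lower), a share near that of all genes. The sign was positive in 48 of the 58, with a median of 0.11, where the median over all genes was 0.0064. All 21 genes of the 40S subunit were on the positive side (median 0.16, of which 4 passed), as were 26 of 31 for the 60S subunit (median 0.10, 5 higher and 1 lower). Of the 6 paralogs and namesakes, 1 was on the positive side (median -0.09, 0 higher and 2 lower). The count for this time point rests on the processing, as it ran from 3 to 18 over the settings tried.

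At 8 h, 18 genes were higher and 2 lower in treated liver, which is 34.5% where 32.3% of all genes passed. The higher genes were 31% of the 58, where 15.1% of all genes were higher, and the lower ones 3.45%, where 17.2% of all genes were lower. The median was 0.12, with 48 of 52 genes of the 60S and 40S subunits on the positive side and 1 of 6 paralogs and namesakes. All 18 higher genes belong to the subunits (10 of the 60S and 8 of the 40S), and both lower ones, Rps27l and Rpl36al, are paralogs. In the comparisons of treatment at 0 and at 8 h, which share no array, 10 genes passed in both with the same sign and 0 with opposite signs. That is 83.3% of the 12 genes at 0 h and 50% of the 20 at 8 h, where for all genes the shares were 56.4% and 38%.

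**Figure D3:**
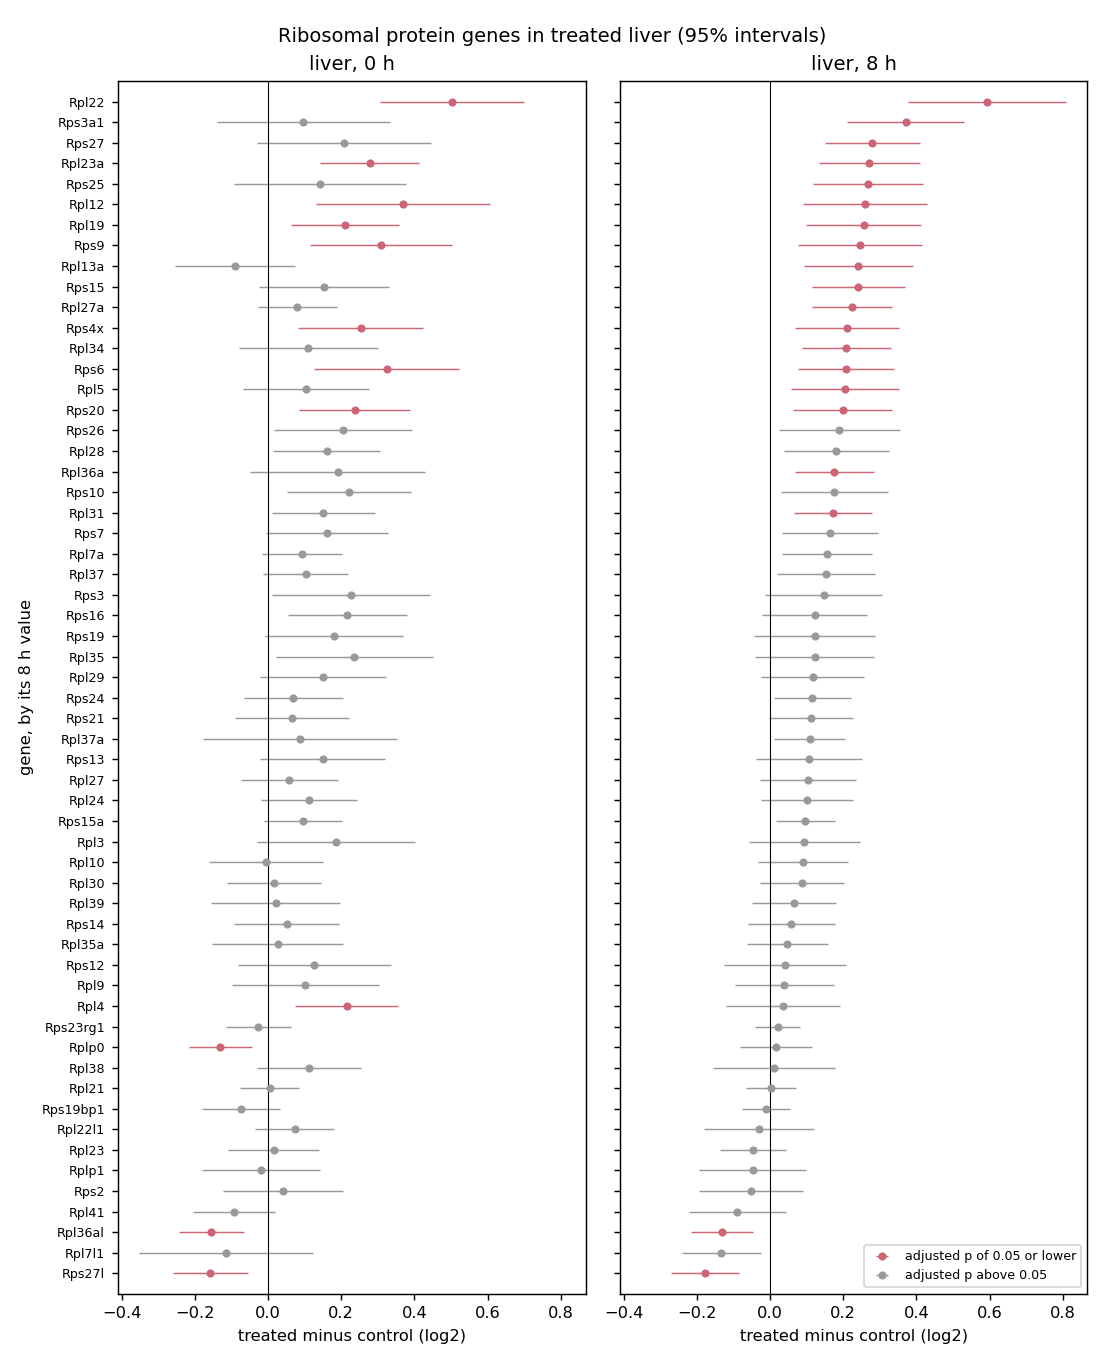
Difference between treated and control liver at 0 h and at 8 h (x axis, log2, with 95% intervals) for each of the 58 ribosomal protein genes, ordered by the 8 h value. Most subunit genes lie to the right of 0 at both times, Rpl22 is highest with 0.50 and 0.59, and Rps27l and Rpl36al lie to the left with -0.16 and -0.18 and with -0.16 and -0.13.

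Rpl22, a 60S protein that mice can do without except in the development of some T cells, changed most. In control liver at 0 h it read 8.27, 8.38 and 8.76 (lowest, median, highest), and in treated liver 8.58, 9.03 and 9.11. The groups overlapped by a single high control array, and the difference was 0.50 (SE 0.09, adjusted p = 0.00179). At 8 h the controls read 8.04, 8.23 and 8.34 and the treated mice 8.41, 8.72 and 9.29. Here all 8 treated arrays were above all 8 control arrays, at 0.59 (SE 0.10, adjusted p = 3.86e-04). It was the only one of the 58 genes whose groups were apart at 8 h (1.72%, where 7.68% of all genes were apart). At 0 h 0 of the 58 were apart, where 5.4% of all genes were.

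At 120 h Rpl22 read 8.87, 9.04 and 9.19 in controls and 8.81, 9.03 and 9.19 in treated mice, with a difference of -0.03 (adjusted p = 0.933). Both groups at 120 h stood above the controls at 0 h, without overlap. In order, the group means (SD) were 8.20 (0.11) in controls at 8 h, 8.42 (0.16) in controls at 0 h, 8.79 (0.29) in treated mice at 8 h, 8.92 (0.21) in treated mice at 0 h, 9.01 (0.11) in treated mice at 120 h and 9.04 (0.10) in controls at 120 h. Controls rose by 0.62 between 0 and 120 h (SE 0.06, adjusted p = 2.34e-08), while treated mice differed by 0.09 over that interval (adjusted p = 0.507). The effect of treatment at 120 h minus that at 0 h was -0.53 (SE 0.13, adjusted p = 0.00311), and minus that at 8 h it was -0.62 (SE 0.12, adjusted p = 4.67e-04), both as contrasts in 1 limma fit. The controls at 0 h enter both the effect at 0 h and the rise of the controls. Its paralog Rpl22l1 did not pass in any liver comparison, with 0.07 (adjusted p = 0.325) at 0 h, -0.03 (0.782) at 8 h and 0.03 (0.667) in controls between 0 and 120 h. In the brain regions Rpl22 did not pass in any comparison of treated with control mice or of controls over time.

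**Figure D4:**
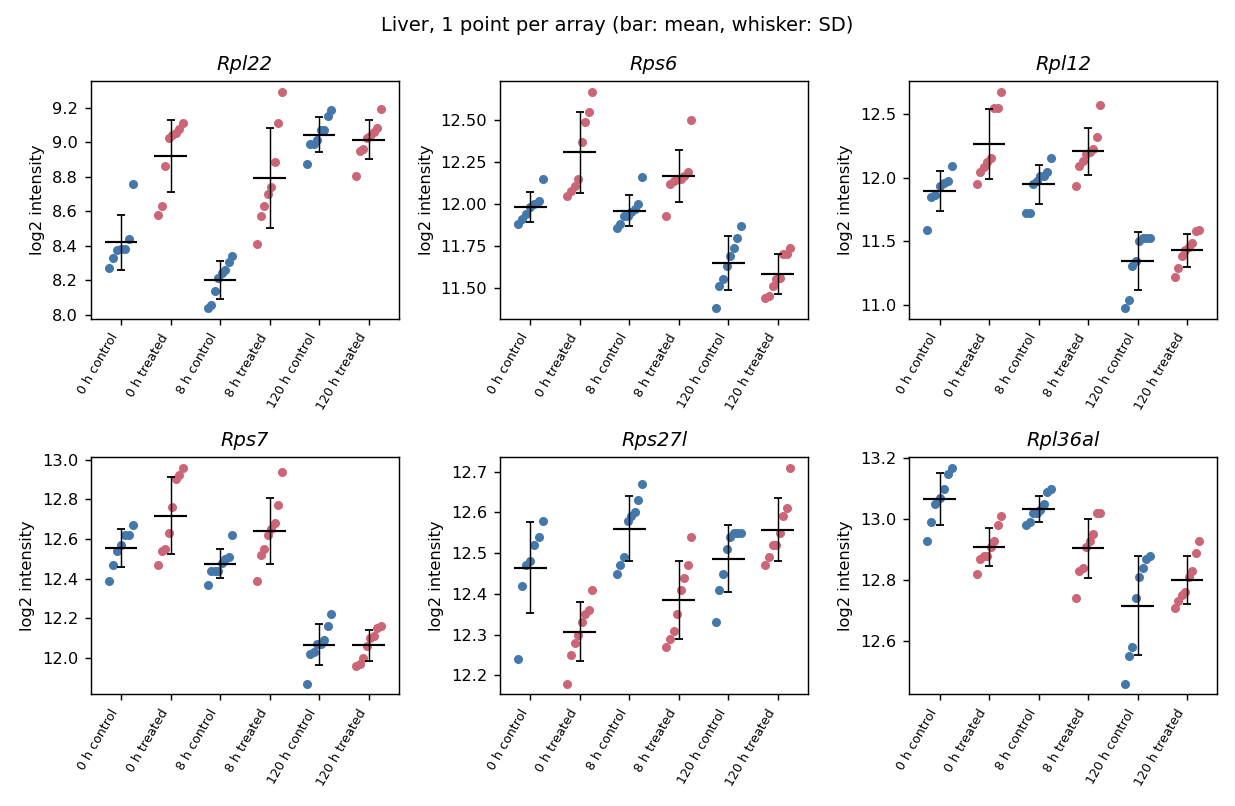
Log2 intensity (y axis) of Rpl22, Rps6, Rpl12, Rps7, Rps27l and Rpl36al on each liver array, by time point and treatment, with a bar at the mean and whiskers of 1 SD. Rpl22 is lowest in controls at 0 and 8 h (means 8.42 and 8.20) and highest at 120 h in both groups (9.04 and 9.01), where Rps6, Rpl12 and Rps7 are at their lowest.

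Among the subunit genes, Rps6 and Rpl12 were higher at both times. Rps6 read 11.88, 11.98 and 12.15 in controls at 0 h and 12.05, 12.26 and 12.67 in treated mice. The groups overlapped, at 0.32 (SE 0.09, adjusted p = 0.0238), and the difference at 8 h was 0.21 (SE 0.06, adjusted p = 0.0174). Rpl12 differed by 0.37 (SE 0.11, adjusted p = 0.0305) at 0 h and by 0.26 (SE 0.08, adjusted p = 0.0205) at 8 h.

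Rps9, a 40S protein, was higher by 0.31 (adjusted p = 0.0279) at 0 h and 0.24 (adjusted p = 0.0284) at 8 h, and its other probe by 0.51 and 0.36, both past the threshold. The other genes higher at both times were Rpl23a (0.28 and 0.27), Rps4x (0.25 and 0.21), Rps20 (0.24 and 0.20) and Rpl19 (0.21 and 0.26). At 0 h Rpl4 was also higher (0.22) and Rplp0 lower (-0.13). At 8 h the second largest rise after Rpl22 was that of Rps3a1 (0.37, SE 0.08, adjusted p = 0.00145), and further rises ran from 0.17 in Rpl31 to 0.28 in Rps27.

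Where a gene had more than 1 probe, the probes did not always agree. The brightest probe of Rpl23 gave 0.02 (adjusted p = 0.871) at 0 h and -0.05 (0.43) at 8 h in treated liver, and the dimmest 0.31 (0.0396) and 0.34 (9.3e-04). Over time in controls, Rpl23 rose by 0.19 (adjusted p = 0.00166) by its brightest probe, and its other 2 probes gave 0.0039 (0.968) and -0.32 (1.06e-04). Its direction over time therefore differs by probe. Rpl27a, higher in controls at 120 h by 0.19 (adjusted p = 0.00144), was also higher in treated mice at 120 h (0.14, adjusted p = 0.0401).

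The paralogs stand beside the genes they resemble. Rps27l, a close copy of Rps27 and known as a target of p53, read 12.24, 12.48 and 12.58 in controls at 0 h and 12.18, 12.31 and 12.41 in treated mice. The groups overlapped, and the difference was -0.16 (SE 0.05, adjusted p = 0.0332). At 8 h the difference was -0.18 (SE 0.04, adjusted p = 0.0064). Rps27 itself read 12.39, 12.64 and 12.68 in controls at 8 h and 12.65, 12.84 and 13.10 in treated mice, a rise of 0.28 (SE 0.06, adjusted p = 0.00267), and at 0 h its difference was 0.21 (adjusted p = 0.2).

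Rpl36al, the autosomal copy of the X-linked Rpl36a, read 12.93, 13.07 and 13.17 in controls at 0 h and 12.82, 12.90 and 13.01 in treated mice. The groups overlapped, and the difference was -0.16 (SE 0.04, adjusted p = 0.0177) at 0 h and -0.13 (SE 0.04, adjusted p = 0.0193) at 8 h. Rpl36a was higher by 0.18 (SE 0.05, adjusted p = 0.0146) at 8 h, and at 0 h its difference was 0.19 (adjusted p = 0.246). Over time in controls both of this pair fell, Rpl36a by 0.31 and Rpl36al by 0.35. The difference between a gene and its paralog was not tested, since their probes are different. Rpl7l1 (-0.12 and -0.13), Rps23rg1 (-0.03 and 0.02) and Rps19bp1 (-0.07 and -0.01) did not pass at 0 or 8 h.

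At 120 h, 0 of the 58 genes and 0% of all genes passed between treated and control liver (limma), with 3 of the 58 and 590 of all 7372 genes at an unadjusted p of 0.05 or lower. The median difference over the 58 was 0.03. The smallest p were those of Rpl4 (0.22, adjusted p = 0.416) and Rpl36a (0.19, adjusted p = 0.459). As contrasts in 1 fit, the effect of treatment at 8 h minus that at 0 h passed in 0 genes of the 58 (4 at an unadjusted p of 0.05 or lower), where 5.28% of all genes passed. The effect at 120 h minus that at 0 h passed in 6 genes (10.3%, where 16.4% of all genes did), as a lower effect in Rpl22, Rps6 (-0.39), Rps9 (-0.34) and Rpl23a (-0.34) and a higher one in Rps27l (0.23) and Rpl36al (0.24). The effect at 120 h minus that at 8 h passed in 7 genes (12.1%, where 15.9% of all genes did), which were Rpl22, Rps3a1 (-0.42), Rpl23a (-0.33), Rps15 (-0.31), Rpl27a (-0.19), Rps27l (0.25) and Rpl36al (0.22).

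**Figure D5:**
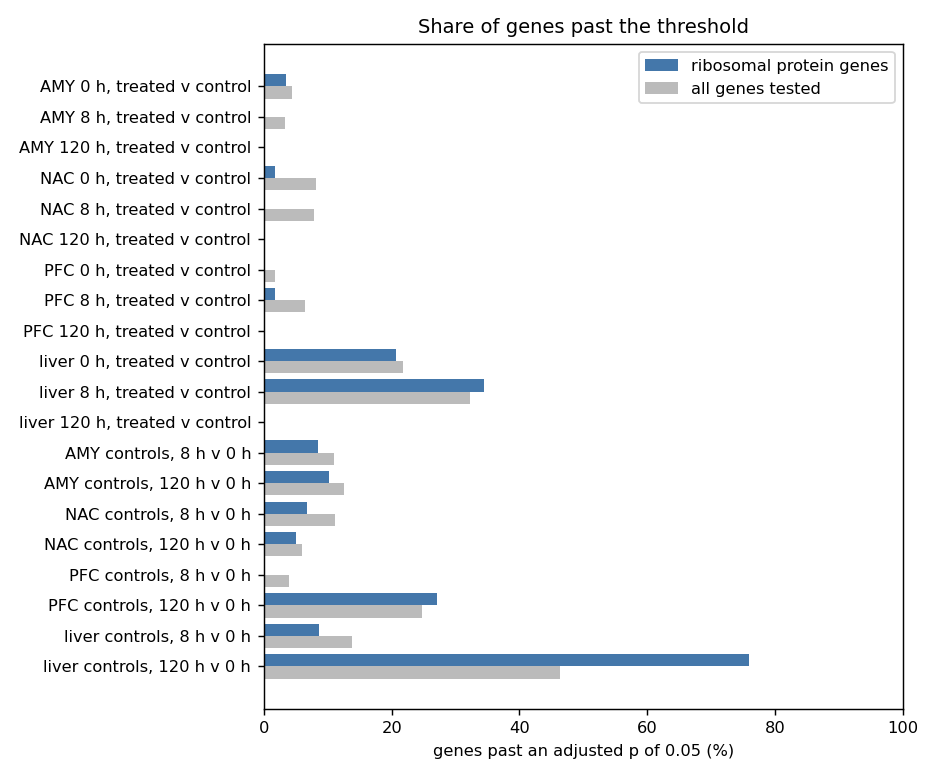
Share of genes past an adjusted p of 0.05 (x axis, percent) among the ribosomal protein genes and among all genes tested, for each tissue and comparison. In liver controls between 0 and 120 h the share of ribosomal protein genes is 75.9% against 46.4% of all genes, and in most other comparisons it is near or below that of all genes.

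Genes that work with the ribosome were described by lists. Of 15 translation genes known to carry a 5′ TOP tract, 6 were higher and 0 lower in treated liver at 0 h. Of all genes, 9.55% were higher and 12.2% lower there. At 8 h 10 of the 15 were higher and 0 lower (15.1% and 17.2% of all genes). Eef2, the elongation factor that moves the ribosome along, was higher by 0.45 (adjusted p = 0.00143) and 0.69 (adjusted p = 1.22e-05), and Hnrnpa1, an RNA-binding protein, by 0.39 and 0.45. Between 0 and 120 h in controls, 1 of the 15 was higher and 7 lower, with Eif3f, of the initiation factor eIF3, at -0.34 and Eef1g, of the elongation factor eEF1, at -0.49. Fau, whose product yields a 40S protein that the symbol rule does not reach, was higher by 0.48 (adjusted p = 3.63e-04) and 0.40 (adjusted p = 1.02e-04) in treated liver at 0 and 8 h, and gave 0.11 (adjusted p = 0.0932) in controls between 0 and 120 h.

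Of 44 genes of ribosome biogenesis, 6 were higher and 2 lower in treated liver at 0 h, where 9.55% of all genes were higher and 12.2% lower. At 8 h 15 were higher and 0 lower (15.1% and 17.2% of all genes). In controls between 0 and 120 h 6 were higher and 10 lower (23.9% and 22.5% of all genes). Npm1, an abundant nucleolar protein, was higher by 0.58 (adjusted p = 0.00401) at 0 h and 0.52 (adjusted p = 2.37e-06) at 8 h. Gnl3, a nucleolar GTP-binding protein, was higher by 0.74 at 8 h, and Utp6, of the processome of the small subunit, was lower (-0.26) at 0 h. In controls between 0 and 120 h Nhp2 (-0.48) and Eif6 (-0.58), a factor that keeps the 60S subunit from joining early, fell. Of 9 genes of RNA polymerase I, which transcribes ribosomal RNA, 2 were higher at 0 h and 3 at 8 h and 0 were lower, with Polr1c at 0.34 and 0.29 and Taf1d at 0.49 and 0.30, and 1 was higher and 1 lower (Polr1e, -0.28) in controls over time.

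Of 19 genes of the TOR pathway, 3 were higher and 3 lower at 0 h and 4 higher and 2 lower at 8 h. The list also held Pdk1, which in the mouse is the symbol of a pyruvate dehydrogenase kinase and is left out of these counts. At 0 h Rictor, of TOR complex 2, was higher by 0.41 and Akt1s1, an inhibitor in TOR complex 1, lower (-0.23). At 8 h Eif4ebp1, the inhibitor of initiation that TOR releases, was higher by 0.95 (adjusted p = 1.9e-04). In controls between 0 and 120 h, 7 were higher and 2 lower, with Deptor, a TOR inhibitor, at 0.65 and Ddit4, which restrains TOR complex 1 under stress, at -0.64. For all of these lists the background shares are those given above for each comparison, 21.8%, 32.3% and 46.4% of all genes in either direction. By direction they are 9.55% higher and 12.2% lower at 0 h, 15.1% and 17.2% at 8 h, and 23.9% and 22.5% in controls over time. The same shares hold for the marker counts in liver.

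Kupffer cell and red blood cell markers moved with treatment too. Of 7 Kupffer cell markers kept, 5 were higher at 0 h and 6 at 8 h and 0 were lower, with Marco at 0.83 and 0.76 and Vsig4 at 0.71 and 0.61. Their summed intensity ran from 3623 to 5875 in treated mice at 0 h and from 4129 to 6382 at 8 h, against 2281 to 4881 and 2591 to 4691 in the controls. Both red blood cell markers kept were lower at 0 and 8 h, with Alas2 at -1.49 and -1.35 and Hba-a1 at -1.65 and -1.18. Their sums ran from 536.3 to 2076 and from 401.6 to 2457 in treated mice, against 2146 to 6063 and 1181 to 4510 in controls. Of 6 hepatocyte markers, 1 was higher and 1 lower at 0 h and 2 higher and 1 lower at 8 h. Their sums ran from 65140 to 74200 and from 69110 to 72840 in treated mice, against 58980 to 72440 and 61070 to 69360 in controls. Their part in the ribosomal protein results was not tested.

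The liver results were also laid out by start region. In controls between 0 and 120 h, the 26 genes with a pyrimidine run of 8 or more had a median difference of -0.27 (15 lower, 1 higher) and the 24 with a shorter run had -0.27 (19 lower, 2 higher). In treated liver at 8 h the medians were 0.17 (10 higher, 1 lower) and 0.11 (6 higher, 1 lower). The 10 genes with CTCTTT had medians of -0.32 and 0.19 in these comparisons, and the 18 with CCGGAAG had -0.29 and 0.17, where the 32 without it had -0.25 and 0.11. These groups were not tested against each other. Rpl22, printed above with runs of 4 and 5 pyrimidines in its windows, is among the genes with a shorter run.

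In the brain regions few ribosomal protein genes passed between treated and control mice, and in 0 of them were the groups free of overlap. Of all genes, 0.481%, 0.504% and 0.0344% were free of overlap at 0, 8 and 120 h in AMY. The shares were 0.595%, 1.25% and 0.0229% in NAC and 0.54%, 0.901% and 0.045% in PFC. At 0 h 2 genes passed in AMY (3.39%, where 4.33% of all genes did), with 0 at 8 h (3.31% of all genes) and 0 at 120 h (0% of all genes). In NAC the counts were 1 at 0 h (1.69%, where 8.16% of all genes did), 0 at 8 h (7.79% of all genes) and 0 at 120 h (0% of all genes), and in PFC 0 at 0 h (1.69% of all genes), 1 at 8 h (1.69%, where 6.46% of all genes did) and 0 at 120 h (0% of all genes). At an unadjusted p of 0.05 or lower the limma counts at 0, 8 and 120 h were 8, 6 and 5 in AMY, 8, 17 and 7 in NAC and 13, 5 and 5 in PFC, and over all genes at 120 h they were 287, 439 and 315. The counts at 0 and 8 h have no count over all genes beside them and are not read as a result about these genes. The effect at 8 h minus that at 0 h passed in 0 genes of each region (0, 5 and 10 at an unadjusted p of 0.05 or lower in AMY, NAC and PFC), where 0.607%, 2.76% and 4.36% of all genes passed.

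Rps15a, a 40S protein, passed in opposite directions in AMY and NAC at 0 h. In AMY it read 9.77, 9.98 and 10.03 in controls and 9.58, 9.74 and 9.95 in treated mice, a difference of -0.22 (SE 0.05, adjusted p = 0.0179). All 8 treated arrays lay below the control mean, although the groups overlapped. In NAC it read 8.81, 8.96 and 9.05 in controls and 9.01, 9.15 and 9.34 in treated mice, a difference of 0.19 (SE 0.04, adjusted p = 0.0161), and all 8 treated arrays lay above the control mean. The difference between the regions was not tested, and the levels of a gene in different tissues were normalized separately. In controls of NAC Rps15a was higher at 8 h than at 0 h, by 0.25 (adjusted p = 0.0117). Both NAC comparisons use the same controls at 0 h and are not independent. At 8 h Rps15a in NAC ran from 8.99 to 9.54 in controls and from 8.86 to 9.35 in treated mice, and it did not pass.

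Hba-a1, the red blood cell marker kept in these regions, was lower in treated mice at 0 h, with intensities from 447.7 to 1780 in controls and from 229.2 to 871.4 in treated mice in AMY, and from 432.5 to 2113 and from 270 to 1133 in NAC. Of the 9 oligodendrocyte markers kept, none passed among the amygdala arrays at 0 h, and 3 were lower in NAC, with sums from 17100 to 21020 in controls and 14400 to 22280 in treated mice in AMY and from 16600 to 24530 and 16790 to 22690 in NAC. Of 6 thalamus markers 3 were higher in treated NAC at 0 h. The part of these markers in the Rps15a values was not tested.

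The other genes that passed in brain had small differences. In AMY at 0 h Rpl38, a 60S protein, was higher by 0.12 (SE 0.03, adjusted p = 0.0471). In PFC at 8 h Rpl7l1 was lower, with a difference of -0.12 (SE 0.03, adjusted p = 0.0298), and its other probe gave 0.05 (adjusted p = 0.368). In AMY the effect of treatment on Rpl7l1 was higher at 120 h than at 0 h by 0.23 (SE 0.06, adjusted p = 0.0411), the only gene of the 59 to pass there (1.69%, where 1.65% of all genes did). The effect at 120 h minus that at 8 h passed in 0 genes in AMY (0.47% of all genes), NAC (1.35%) and PFC (0.957%), and that at 120 h minus 0 h in 0 genes in NAC (2.3%) and PFC (0.732%).

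Many small differences in NAC at 8 h and PFC at 0 h had the same sign. In NAC at 8 h 49 of 59 genes were on the positive side, with a median of 0.06 and the smallest p in Rpl30 (0.12, adjusted p = 0.0523) and Rpl27 (0.11, adjusted p = 0.0576). In PFC at 0 h 50 of 59 were, with a median of 0.08 and the smallest p in Rpl9 (0.11, adjusted p = 0.0529) and Rpl19 (0.15, adjusted p = 0.125). The genes of an array move together, so that the 59 signs are not independent of each other. When arrays were scaled to a common median only, 11 genes passed in NAC at 8 h, all higher. The share of all genes under that scaling is not given here, so this count is not read as a result about these genes. Cell type markers moved in these comparisons. In NAC at 8 h, 4 of 9 markers of oligodendrocytes, 4 of 10 of microglia, 3 of 4 of the Kupffer list (which shares C1qa, C1qb and C1qc with the microglia list), 2 of 9 of astrocytes, 2 of 4 of choroid plexus and meninges and 1 of 6 of thalamus were higher, and 1 of microglia, 2 of 7 of neurons and Hba-a1 were lower. The summed intensity of choroid plexus and meninges markers ran from 1190 to 1560 in controls and from 1559 to 2980 in treated mice, that of the Kupffer list from 1074 to 1309 and from 1280 to 1634, and that of Hba-a1 from 569.6 to 2106 and from 307.9 to 1052. In PFC at 0 h, 1 of 6 thalamus markers was higher and 1 of 10 of microglia and 1 of 4 of striatum were lower, and 0 of the others passed. The sums there ran from 2146 to 3459 in controls and from 2458 to 7097 in treated mice for thalamus, from 2596 to 3424 and 2351 to 3571 for microglia, from 5069 to 8429 and 5137 to 10410 for choroid plexus and meninges, and from 1316 to 6420 and 879 to 3510 for red blood cells. In PFC 1 treated array at 0 h correlated least with its group (0.985), with a median over the ribosomal protein genes of 0.15, and without it 0 genes passed. The part of these markers in the ribosomal protein values was not tested. In AMY at 8 h the smallest p was that of Rps27 (0.15, adjusted p = 0.0773).

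Over time in controls of the brain regions, between 0 and 16 genes passed. In AMY 5 genes passed between 0 and 8 h (8.47%, where 10.9% of all genes did) and 6 between 0 and 120 h (10.2%, where 12.6% did). Rpl5 was lower at both times (-0.29 and -0.21) and Rpl4, a 60S protein, higher at both (0.19 and 0.24). In NAC 4 genes passed at 8 h (6.78%, where 11.2% did) and 3 at 120 h (5.08%, where 6.03% did), all higher (6.04% and 3.03% of all genes were higher, 5.15% and 3% lower), namely Rps15a (0.25), Rpl35a (0.24), Rpl13a (0.22) and Rpl10 (0.19) at 8 h and Rpl27a (0.21), Rpl10 (0.17) and Rpl9 (0.17) at 120 h. These comparisons of a region share the controls at 0 h.

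In PFC 0 genes passed between 0 and 8 h (3 at an unadjusted p of 0.05 or lower, where 4% of all genes passed), and 14 were higher and 2 lower between 0 and 120 h (27.1%, where 24.8% of all genes passed, 13.4% as higher and 11.4% as lower). Rps9 read 10.65, 10.96 and 11.19 at 0 h and 11.14, 11.20 and 11.42 at 120 h, a difference of 0.27 (adjusted p = 0.0138). Rpl19 read 9.68, 9.95 and 10.06 and then 10.08, 10.19 and 10.28, without overlap, also at 0.27 (adjusted p = 2.67e-04). Rpl4 (0.26) and Rpl22l1 (0.20) were next, and Rps4x (-0.14) and Rpl7l1 (-0.10, with 0.11 by its other probe) were lower. The direction in PFC rests on the scaling, since median scaling turned the median over the genes from 0.05 to -0.11 and gave 5 higher and 29 lower, and no direction over time is drawn for PFC. In treated mice, the genes that passed between 0 h and 8 and 120 h were 12 (20.3%, where 18.2% of all genes did) and 14 (23.7%, where 22% did) in AMY, 10 (16.9%, where 21.3% did) and 13 (22%, where 24.8% did) in NAC, and 5 (8.47%, where 12.8% did) and 17 (28.8%, where 27.6% did) in PFC. Rpl4 was higher at 8 h in AMY (0.25) and PFC (0.22).

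Across all tissues and the comparisons of treatment and of controls over time, but without PFC controls at 120 h, whose direction rests on the scaling, Rpl4, Rpl22 and Rpl27a were higher in 3 comparisons each and Rpl5, Rpl36al and Rplp0 lower in 3 each. Rpl22 was also lower in 1 comparison (liver controls at 8 h) and Rpl5 higher in 1 (treated liver at 8 h). How many of all genes reach such tallies was not counted. Some of these comparisons share control arrays, so the counts are not independent.

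Ribosomal protein genes went up and down together from array to array. After the group means were removed, the correlation of a gene with the mean of the other members had a median of 0.73 over 47 liver arrays, 0.59 over 48 in AMY, 0.52 over 48 in NAC and 0.55 over 48 in PFC. For all genes, members included, the correlation with the mean of all members had medians from 0.02 to 0.04. The points share arrays, RNA and normalization, so these values are a description. The members least like the rest were Rpl22 in liver (-0.38), Rpl23 in AMY (-0.53), Rps23rg1 in NAC (-0.42) and Rpl4 in PFC (-0.19). The genes outside the set whose pattern over all arrays was most like its mean were Hint1 (0.90), Eef1g (0.87) and Eef1b2 (0.87) in liver, Fau (0.83), Cux1 (0.77) and Rtcb (0.74) in AMY, Snrpg (0.82), Fau (0.79) and Vat1l (0.79) in NAC, and Fau (0.84), Bloc1s1 (0.83) and Apoe (0.83) in PFC.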

How the data were processed

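Each of the 191 arrays (Illumina MouseRef-8 v2) held RNA of 1 tissue of 1 mouse, so p-values measure the spread between mice. The authors deposited 25697 probes per array as non-normalized intensity with a detection p-value, which states how likely background alone is to reach that signal. They also deposited processed log2 values, for which they had used lumi (dim probes dropped, variance stabilized, quantile normalization, outliers taken out by Grubbs' test). Groups came from the labels. A probe was kept in a tissue if its detection p was at most 0.05 in over 80% of the arrays, which left 12588 probes for AMY, 12659 for NAC, 12835 for PFC and 10530 for liver. Intensities were then set to log2 and quantile normalized per tissue. Comparisons used limma 3.58.1 (R 4.3.3; moderated statistics, two-sided, Benjamini-Hochberg over the kept probes), fitted within a time point for treatment, over the 3 control groups for time, and over all 6 groups for differences between effects. The 4 comparisons of treated mice over time and of the effect at 120 h were added after the data had been seen. Each gene is its brightest probe in the tissue.

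The members and lists were chosen with earlier results of these data known. Named genes are, per comparison, the 3 largest rises and falls past the threshold (otherwise the 2 smallest p), well-known members and paralogs, for lists the 2 smallest p, and the genes that passed in most comparisons, and genes named beyond this were chosen after their values were seen. The steps were tested on simulated data. Alternatives were median scaling, background correction with an offset of 16, the authors' values with and without a replicate block, other filters, array weights, leaving out the array least like its group, the mean of a gene's probes, and 1 fit of 6 groups.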

Additional observations from a re-analysis of the deposited data

Results flagged for a closer look

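Within groups, 96 sets of values (the array medians and the levels of named genes) were searched for an array far from the others of its group, and 4 had one, where chance gives about 1 in 20. In PFC 1 control array at 8 h had a median over the ribosomal protein genes of 0.128 relative to its group, with the next at 0.0092. In PFC 1 control array at 120 h had Rps9 at 11.42, with the next at 11.25. In liver 1 control array at 0 h had Rpl22 at 8.76, with the next at 8.44 (7 arrays), and 1 treated array at 8 h had Rps6 at 12.50, with the next at 12.19.

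The effect of treatment in liver differed between time points in a limma test of the difference itself for the genes that follow. At 120 h against 0 h it was lower for Rpl22 (-0.53), Rps6 (-0.39), Rps9 (-0.34) and Rpl23a (-0.34), and higher for Rps27l (0.23) and Rpl36al (0.24). That is 10.3% of the 58 genes, where 16.4% of all genes passed. At 120 h against 8 h the effect was lower for Rpl22 (-0.62), Rps3a1 (-0.42), Rpl23a (-0.33), Rps15 (-0.31) and Rpl27a (-0.19), and higher for Rps27l (0.25) and Rpl36al (0.22). That is 12.1%, where 15.9% of all genes passed. In AMY the effect on Rpl7l1 was higher at 120 h than at 0 h (0.23), the only gene to pass (1.69%, where 1.65% of all genes did). For Rps15a every treated array at 0 h lay below the control mean in AMY (-0.22) and above it in NAC (0.19), and this difference between regions was not tested.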

How the results depend on the processing

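Of 299 counts of genes past the threshold under other settings, over 40 comparisons, 239 stayed within 1.5 times the count given and 60 moved. A count was also taken as moved within that range if more genes were higher where more had been lower, or the reverse. Between 0 and 120 h in liver the count ran from 42 to 47 in controls and from 40 to 47 in treated mice, and for treated against control liver at 8 h from 17 to 25. Treated against control liver at 0 h ran from 3 to 18, and treated against control at 120 h gave 0 in each tissue under every setting run. For single named genes, 395 of 456 values kept their direction and their side of the threshold, 59 lost the call and 2 turned. Those 2 came with each gene as the mean of its kept probes, Rpl7l1 in PFC controls at 120 h (0.0039) and Rpl23 in liver controls at 120 h (-0.041), whose probes differ. Rpl22 passed in treated liver at 0 and 8 h and in controls at 120 h under all settings run.

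Counts that moved follow by setting, as treated against control unless stated, and the cause was not tested. Shares of all genes under these settings are not given beside the counts. The 7 in AMY controls at 8 h, against 5 in the main run, moved by the direction of most genes. With median scaling they were 1 in AMY at 0 h, 3 and 11 in NAC at 0 and 8 h, 7 and 9 in controls at 8 h of AMY and NAC, 11 in NAC controls at 120 h, 5 and 34 in PFC controls at 8 and 120 h, 23 and 23 in treated mice of NAC and 11 and 38 of PFC at 8 and 120 h, 2 in treated liver over 8 h, and 0 for the effect at 120 h minus 0 h in AMY. With background correction they were 1 in AMY, 7 in liver and 3 in AMY controls at 8 h, and 0 in PFC at 8 h. Without a detection filter they were 1 in AMY, 1 in PFC and 6 in liver at 0 h and 2 in liver controls at 8 h. With detection at 0.01 or lower on all arrays they were 1 in AMY and 2 in NAC at 0 h, and 1 for the effect at 8 h minus 0 h in NAC. With array weights they were 3 and 2 in NAC at 0 and 8 h, and 1 each for the effect at 8 h minus 0 h in NAC and PFC. Leaving out the array least like its group gave 1 in AMY and 2 in NAC at 0 h, 2 in NAC at 8 h, 1 for the effect at 8 h minus 0 h in NAC and 3 in liver controls at 8 h. Gene means gave 2 in NAC and 1 in PFC at 0 h, 3 in NAC and 0 in PFC at 8 h, 7 in AMY controls at 8 h and 1 for the effect at 8 h minus 0 h in NAC. All 6 groups in 1 fit gave 4 in AMY, 4 in NAC and 1 in PFC at 0 h, 1 in NAC at 8 h, and 1 each in controls and in treated mice of liver over 8 h. The authors' processed values gave 2 in NAC and 1 in PFC at 0 h, 4 in NAC at 8 h, 8 in AMY and 1 in PFC controls at 8 h, and 2 for the effect at 120 h minus 0 h in AMY.

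Arrays of the same replicate number were correlated over 0.1 in at most 5 of 8 pairs of a comparison (AMY at 120 h and PFC at 8 h), short of every pair. The median correlation there was 0.19 and 0.18, against -0.07 and -0.07 for arrays of different numbers. In liver the medians for the same title number were -0.11, -0.04 and -0.22 at 0, 8 and 120 h. The numbers were not taken to pair the samples, and whether they follow a chip or a run was not tested. The replicate block, possible only on the authors' processed values, gave 3 in liver (11 without the block, 5 with the numbers of the description field), 1 in AMY and 1 in PFC at 0 h, 1 in AMY and 3 in NAC at 8 h, and 9 in AMY and 1 in PFC controls at 8 h. The chip as a block was not run.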
